A study of Homo sapiens with 6 samples.

Results

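The SLC25 family comprises the mitochondrial carriers, proteins that move small molecules across the inner mitochondrial membrane. Every row of the deposited gene table whose symbol was SLC25A followed by digits alone was taken as a member, which gave 48 of 35974 genes. Most members carry a fold of repeated transmembrane segments and exchange metabolites, nucleotides, cofactors or ions between the cytosol and the mitochondrial matrix. They are encoded in the nucleus, made in the cytosol and inserted into the inner membrane by a dedicated import route. In dividing lymphoid cells they link glycolysis, respiration, nucleotide synthesis and amino acid use.

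RNA was sequenced from SU-DHL-8, an established human diffuse large B-cell lymphoma line, labelled as DNMT1 wild type and as lymph node in all 6 libraries. The line was treated with GSK3685032, a reversible inhibitor of the maintenance DNA methyltransferase DNMT1 (3 libraries), or with the solvent DMSO (3 libraries). In the treatment label, replicate 2 of the inhibitor carries the name GSK3685033 and replicate 3 GSK3685034, while the series design names GSK3685032 alone, and the 3 libraries were kept as 1 group. Neither dose nor duration is given here. Separate cultures are not stated for any group, and the p-values below therefore cover library-to-library spread, possibly technical.

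Total estimated counts were 53846028 to 56795603 with GSK3685032 and 57451935 to 75304441 with DMSO, at about 4 counts per read pair. DNMT1 itself had 13.3, 11.8 and 13.0 FPKM (fragments per kilobase of transcript, scaled to library size) with GSK3685032 and 33.0, 33.6 and 32.2 FPKM with DMSO, a log2 fold change of -1.38 ± 0.055 (SE, edgeR adjusted p = 5.38e-08). The 6 B-cell markers examined were all at or above 1 FPKM on average in both groups, with sums of 796.8 to 862.7 FPKM with GSK3685032 and 862.3 to 879.3 FPKM with DMSO. Of 4 epithelial markers, only KRT18 averaged at least 1 FPKM, at 2.32, 3.47 and 2.15 FPKM with GSK3685032 and 0 in each DMSO library, and the list summed to 2.74 to 4.15 FPKM against 0 to 0.014 FPKM. T-cell (2 of 4 in the table), myeloid and fibroblast markers stayed under 1 FPKM on average, with sums of 0.105 to 0.356, 0.745 to 1.01 and 0.551 to 0.713 FPKM with GSK3685032 and 0.022 to 0.05, 0.568 to 0.798 and 0.099 to 0.132 FPKM with DMSO. The part of these genes in the results was not tested. In bulk RNA, fewer cells expressing a gene and less RNA per cell cannot be told apart.

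Transcripts of 43 members were abundant enough to be tested. With GSK3685032, 11 of the 43 were higher and 15 lower at an edgeR adjusted p under 0.05, and 17 did not pass. Over all 20783 genes tested, 38.1% were higher and 27.3% lower (65.4% in either direction), beside 25.6% of the tested carriers higher and 34.9% lower. Among genes averaging at least 1 FPKM in a group, 34.1% were higher and 39.7% lower, and of the 36 carriers at that level 8 were higher (22.2%) and 15 lower (41.7%). At least 2-fold higher were 5 carriers, SLC25A1, SLC25A6, SLC25A27, SLC25A31 and SLC25A34, against 25.3% of all tested genes; the first pair averaged at least 1 FPKM, a level at which 15.2% of genes were at least 2-fold higher. The median log2 fold change of the tested carriers was -0.03, against 0.14 for all genes tested. At a mean of at least 1 FPKM in a group, the medians were nearly equal, at -0.07 for the 36 carriers and -0.06 for all genes. With upper-quartile scaling the split of the carriers turned to 16 higher and 11 lower and their median to 0.15, while the median of all genes moved to 0.31. Of all genes tested, 44.8% were then higher and 20.9% lower. FPKM values of the groups did not overlap for 28 of the 43 tested carriers, against 71.7% of all tested genes, and for 25 of the 36 carriers at 1 FPKM or more, against 79.0%.

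**Figure D1:**
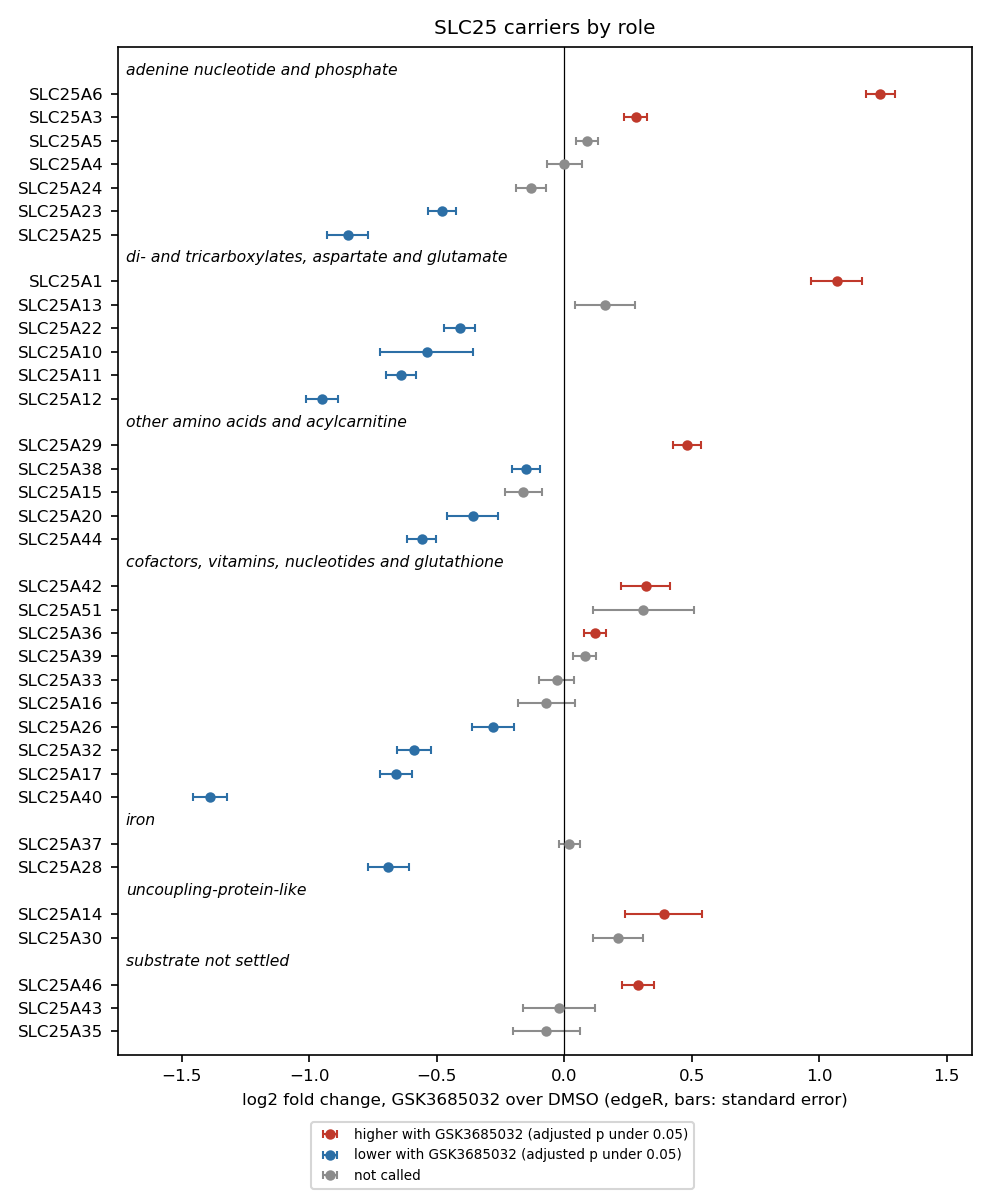
Log2 fold change, GSK3685032 over DMSO, of the SLC25 carriers reported here that averaged at least 1 FPKM in a group, ordered by role, with the edgeR standard error as bars and colour for the call at an adjusted p under 0.05. SLC25A6 and SLC25A1 lie beyond 1 on the right, and SLC25A40 beyond -1 on the left.

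Summed FPKM of all 48 carriers was 760.9 ± 10.9 with GSK3685032 and 607.2 ± 5.31 with DMSO (SD, n = 3 each). Without SLC25A6 the sums were 449.0 ± 2.34 FPKM and 476.0 ± 2.55 FPKM, so that the remaining carriers together were slightly lower with the inhibitor. SLC25A3, SLC25A5 and SLC25A6 alone made up 67.6, 66.1 and 65.6% of the family's FPKM with GSK3685032, against 50.0, 49.6 and 50.9% with DMSO. The family took 0.274 ± 0.00302% of all counts with GSK3685032 and 0.248 ± 0.00122% with DMSO (SD, n = 3 each).

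Stretches upstream of 4 carriers are shown because DNMT1 copies methylation at CG dinucleotides, and because these carriers had large changes described below. SLC25A31 and SLC25A27 had no counts with DMSO, SLC25A6 was the most abundant carrier, and SLC25A40 was among the most lowered. Each is the 250 bases before the RefSeq start on build GRCh38.p14, written 5′ to 3′ on the gene's strand, with CG in capitals. The windows are chr4:127730150-127730399 (plus strand) for SLC25A31, chr6:46652725-46652974 (plus) for SLC25A27, chrX:1392114-1392363 (minus) for SLC25A6 and chr7:87876361-87876610 (minus) for SLC25A40.
SLC25A31: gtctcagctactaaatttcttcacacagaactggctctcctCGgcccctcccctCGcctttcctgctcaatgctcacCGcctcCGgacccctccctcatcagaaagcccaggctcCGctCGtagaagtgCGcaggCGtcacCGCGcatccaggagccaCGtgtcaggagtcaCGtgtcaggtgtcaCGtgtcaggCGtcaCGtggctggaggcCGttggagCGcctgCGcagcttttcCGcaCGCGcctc
SLC25A27: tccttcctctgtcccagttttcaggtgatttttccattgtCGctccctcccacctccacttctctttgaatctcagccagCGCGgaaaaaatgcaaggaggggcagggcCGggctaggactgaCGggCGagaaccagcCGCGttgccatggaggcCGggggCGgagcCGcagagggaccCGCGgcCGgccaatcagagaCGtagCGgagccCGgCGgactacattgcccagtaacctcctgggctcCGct
SLC25A6: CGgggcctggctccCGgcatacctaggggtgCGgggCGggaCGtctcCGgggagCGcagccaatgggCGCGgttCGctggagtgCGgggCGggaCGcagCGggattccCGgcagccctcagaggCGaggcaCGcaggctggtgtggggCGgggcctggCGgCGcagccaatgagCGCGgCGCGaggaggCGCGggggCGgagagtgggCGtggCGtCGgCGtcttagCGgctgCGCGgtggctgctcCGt
SLC25A40: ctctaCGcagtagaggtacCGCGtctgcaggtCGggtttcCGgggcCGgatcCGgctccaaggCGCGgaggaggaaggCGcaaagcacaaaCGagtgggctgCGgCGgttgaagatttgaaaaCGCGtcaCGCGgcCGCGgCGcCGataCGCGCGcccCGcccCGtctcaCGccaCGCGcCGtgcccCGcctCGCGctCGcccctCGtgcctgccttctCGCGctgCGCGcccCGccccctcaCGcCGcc

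CG stood 21 times in the SLC25A31 window, 19 times in that of SLC25A27, 35 times in that of SLC25A6 and 42 times in that of SLC25A40. Of 35116 windows of this length in the RefSeq table, 93.9% held CG, and 30.2, 34.6, 5.80 and 1.38% held at least as many as these 4. A window was found for 40 of the 48 carriers. They held a median of 20.5 CG (2 to 42), against 11 over all windows. The 30 carriers averaging at least 1 FPKM had a median of 25.0 CG (9 to 42) and the 10 below that level 11.5 (2 to 24). By call, the median was 21.0 for 11 higher carriers (8 to 41), 17.0 for 13 lower ones (9 to 42) and 24.0 for 12 that did not pass (2 to 35), so the ranges overlapped broadly. The palindrome CACGTG, which contains a CG and reads the same on both strands, was in 7 of the 40 windows and in 6.34% of all windows. In SLC25A31 it stood 4 times, as in 5 of the 35116 windows at 4 or more (0.0142%). The SLC25A31 window was picked for its expression, and the windows were not matched for CG count, so these shares are a description only. Methylation was not measured in these libraries, and a count of letters says nothing about methylation or binding there.

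**Figure D2:**
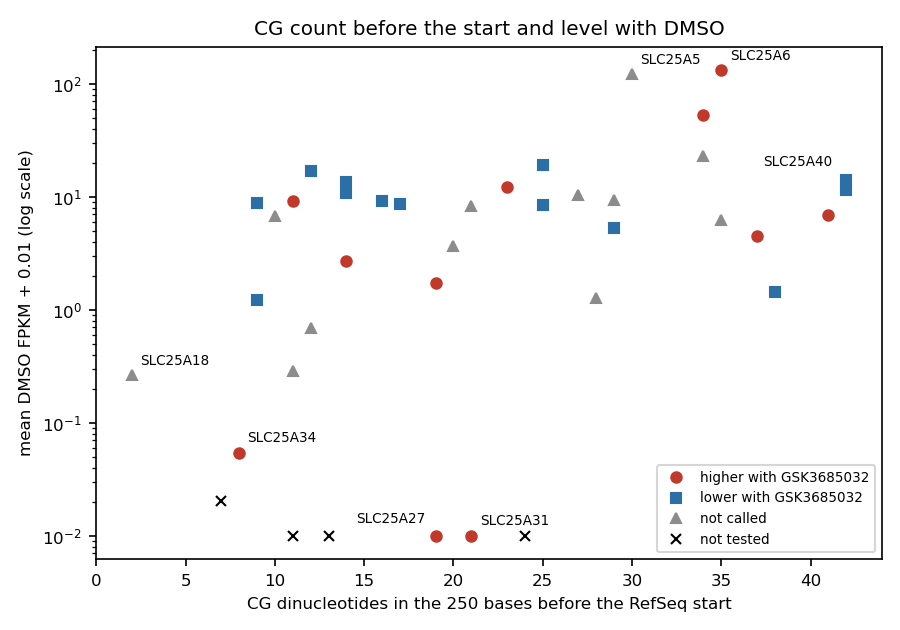
CG dinucleotides in the 250 bases before the RefSeq start (x axis) against mean DMSO FPKM + 0.01 on a log scale (y axis) for the 40 carriers with a window, marked by call. Higher and lower carriers overlap along the x axis, and SLC25A27 and SLC25A31 lie at the bottom with 19 and 21 CG.

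The adenine nucleotide and phosphate carriers, which bring ADP and phosphate into the matrix for ATP synthesis and send ATP out, had 3 of 9 members higher, 2 lower and 4 that did not pass. Counts by role, here and below, stand beside 38.1% higher and 27.3% lower of all tested genes. Among genes averaging at least 1 FPKM the shares were 34.1% and 39.7%. The counts are descriptions, and nothing is read from them as particular to a role. SLC25A6 (chrX:1386152-1392113, GRCh38, pseudoautosomal), an ADP/ATP carrier found in many tissues, had 324.8, 306.2 and 304.7 FPKM with GSK3685032 and 127.7, 125.7 and 140.1 FPKM with DMSO. All 3 inhibitor libraries were far above all 3 DMSO libraries. Its log2 fold change was 1.24 ± 0.056 (SE, edgeR adjusted p = 1.05e-07), or 2.37-fold.

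SLC25A5 (chrX:119468422-119471396), the ADP/ATP carrier typical of proliferating cells, had 130.6, 132.9 and 125.3 FPKM with GSK3685032 and 123.3, 120.7 and 119.3 FPKM with DMSO. The groups did not overlap, yet the difference was small and missed the threshold (log2 0.09 ± 0.043, edgeR adjusted p = 0.0865). It passed in 9 of 17 alternative settings, among them DESeq2, limma and edgeR without inhibitor replicate 3 (adjusted p = 0.033). SLC25A4, the ADP/ATP carrier dominant in heart and muscle, averaged 10.3 ± 0.755 FPKM with GSK3685032 and 10.3 ± 0.724 FPKM with DMSO (SD, n = 3 each), with an interval of the log2 difference from -0.14 to 0.13 (1.96 standard errors each way).

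SLC25A3 (chr12:98593591-98606379), the phosphate carrier, had 66.9, 62.1 and 63.5 FPKM with GSK3685032 and 51.5, 52.9 and 52.9 FPKM with DMSO. The groups were apart, with a log2 fold change of 0.28 ± 0.046 (SE, edgeR adjusted p = 4.00e-04). The ATP-Mg/phosphate carriers, which exchange adenine nucleotides for phosphate, most of them under the control of cytosolic calcium, were lower or did not pass. SLC25A25 had 3.09, 2.93 and 2.81 FPKM with GSK3685032 and 5.66, 5.21 and 4.98 FPKM with DMSO (log2 -0.85 ± 0.079, edgeR adjusted p = 9.50e-06). It overlaps its antisense gene SLC25A25-AS1 over 665 bases, which averaged 5.59 FPKM with GSK3685032 and 6.46 FPKM with DMSO. SLC25A23 had 8.10, 7.89 and 7.44 FPKM with GSK3685032 and 11.1, 10.6 and 10.8 FPKM with DMSO (log2 -0.48 ± 0.056, edgeR adjusted p = 4.83e-05). Every inhibitor library of both was below every DMSO library. SLC25A24 did not pass (log2 -0.13, edgeR adjusted p = 0.0844), nor did SLC25A41, which stayed under 0.5 FPKM and passed only without inhibitor replicate 1 (edgeR adjusted p = 0.0189).

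**Figure D3:**
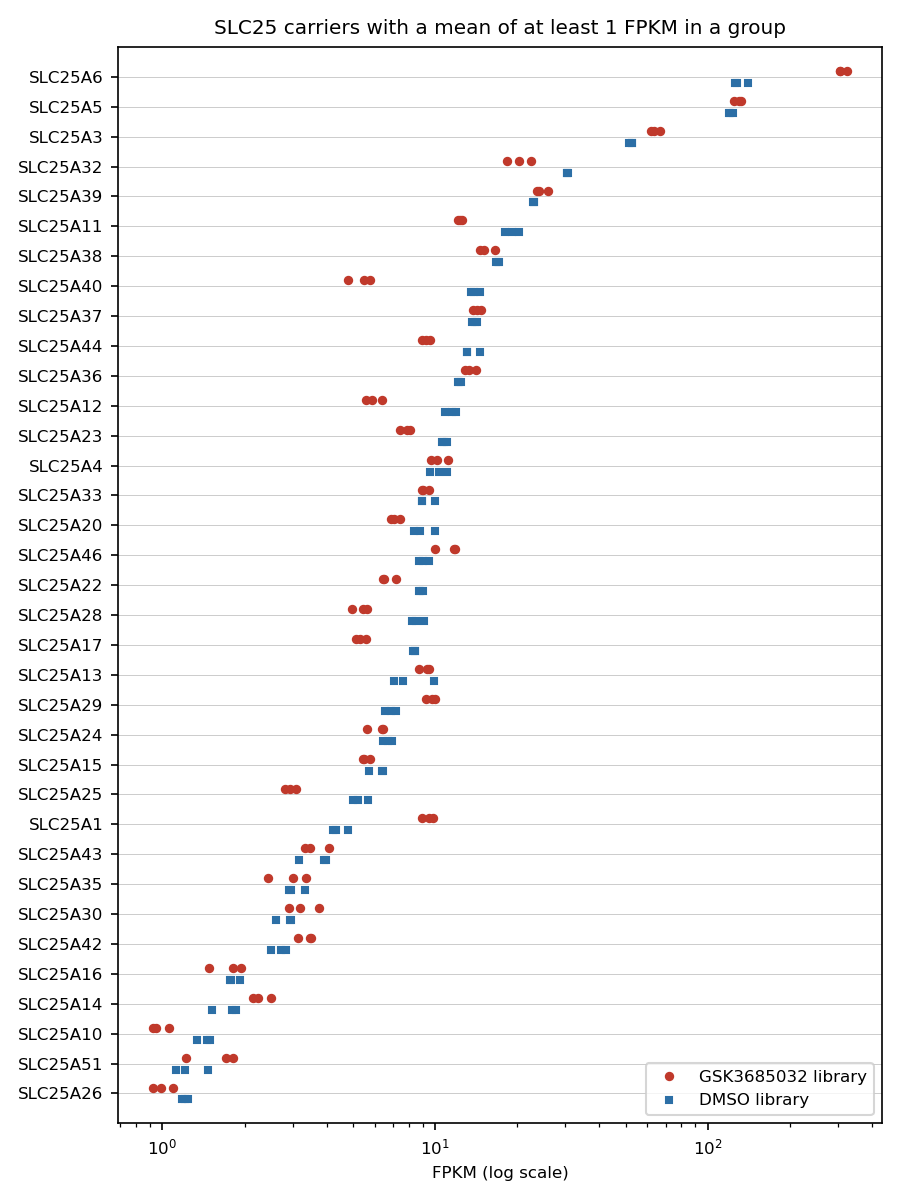
FPKM (log x axis) in each library of the SLC25 carriers reported here that averaged at least 1 FPKM in a group, with GSK3685032 libraries (circles) drawn above DMSO libraries (squares). SLC25A6, SLC25A5 and SLC25A3 lead in both groups, with SLC25A6 at 304.7 to 324.8 FPKM with GSK3685032 and 125.7 to 140.1 FPKM with DMSO.

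Among the carriers of di- and tricarboxylates, aspartate and glutamate, which serve citrate export and the malate-aspartate shuttle, 1 of 7 tested members was higher and 4 were lower. Over all tested genes the shares were 38.1% and 27.3% (34.1% and 39.7% at 1 FPKM or more). SLC25A1 (chr22:19175581-19178736), which exports citrate for fatty acid and sterol synthesis, had 9.50, 9.84 and 8.94 FPKM with GSK3685032 and 4.24, 4.35 and 4.78 FPKM with DMSO. It was higher in every inhibitor library, by a log2 fold change of 1.07 ± 0.1 (SE, edgeR adjusted p = 9.98e-06). By mean FPKM it ranked 13 among the carriers with GSK3685032 and 27 with DMSO.

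SLC25A12 (chr2:171783405-171999859), an aspartate/glutamate carrier of the malate-aspartate shuttle, had 5.88, 5.59 and 6.39 FPKM with GSK3685032 and 10.8, 11.9 and 11.6 FPKM with DMSO. The groups were well apart (log2 -0.95 ± 0.064, edgeR adjusted p = 1.07e-06). It shares 61239 bases with HAT1, a histone acetyltransferase gene on the opposite strand, which averaged 5.87 FPKM with GSK3685032 and 12.2 FPKM with DMSO (log2 -1.06, edgeR adjusted p = 2.22e-07). The counting is not stated to use strand, so reads that fall in this shared stretch cannot be assigned to either gene. Its paralog SLC25A13 did not pass (9.18 ± 0.416 FPKM with GSK3685032 and 8.20 ± 1.53 FPKM with DMSO, SD, n = 3 each), but passed as higher without DMSO replicate 2 (log2 0.32, edgeR adjusted p = 0.00653).

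SLC25A11, the oxoglutarate/malate carrier of the same shuttle, had 12.4, 12.5 and 12.2 FPKM with GSK3685032 and 20.3, 18.0 and 19.1 FPKM with DMSO (log2 -0.64 ± 0.06, edgeR adjusted p = 9.88e-06). The inhibitor libraries lay close together and below all DMSO libraries. SLC25A22, a glutamate carrier, averaged 6.70 FPKM with GSK3685032 and 8.85 FPKM with DMSO and was lower (log2 -0.41, edgeR adjusted p = 2.12e-04). SLC25A10, the dicarboxylate carrier, averaged 0.978 and 1.43 FPKM in the same order and was lower (log2 -0.54, edgeR adjusted p = 0.0245), a call lost without inhibitor replicate 2 or 3 or DMSO replicate 1 or 2 (adjusted p 0.0509 to 0.0741). SLC25A18, the other glutamate carrier, stayed under 0.5 FPKM and did not pass, and SLC25A21 was not tested.

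Of 6 tested carriers of other amino acids and acylcarnitine, 1 was higher and 3 were lower, beside 38.1% and 27.3% of all tested genes (34.1% and 39.7% at 1 FPKM or more). SLC25A29, a carrier of basic amino acids, had 9.95, 9.29 and 9.77 FPKM with GSK3685032 and 6.90, 6.58 and 7.20 FPKM with DMSO (log2 0.48 ± 0.055, edgeR adjusted p = 3.80e-05). SLC25A44, which carries branched-chain amino acids, had 9.29, 8.93 and 9.55 FPKM with GSK3685032 and 13.1, 14.6 and 13.1 FPKM with DMSO (log2 -0.56 ± 0.057, edgeR adjusted p = 1.78e-05). In both genes the groups did not overlap, in opposite directions. SLC25A20, which brings acylcarnitines into the matrix for fatty acid oxidation, had 7.04, 7.44 and 6.90 FPKM with GSK3685032 and 8.84, 8.40 and 10.03 FPKM with DMSO (log2 -0.36 ± 0.099, edgeR adjusted p = 0.00982). The groups did not overlap, but the call was lost with upper-quartile factors (log2 -0.18, edgeR adjusted p = 0.128). SLC25A38, the glycine carrier used in haem synthesis, was called lower by a small margin (log2 -0.15, edgeR adjusted p = 0.0421), a call kept in 4 of 17 alternatives and turned to 0.03 with upper-quartile scaling. SLC25A15, the ornithine carrier of the urea cycle, did not pass (edgeR adjusted p = 0.0887) except without DMSO replicate 3 (0.0456), and SLC25A45 did not pass.

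Carriers of cofactors, vitamins, nucleotides and glutathione were the largest role group, with 2 higher, 5 lower and 4 not called of 11 tested. Of all tested genes, 38.1% were higher and 27.3% lower (34.1% and 39.7% at 1 FPKM or more). SLC25A40 (chr7:87833568-87876360), a glutathione carrier whose upstream stretch is shown above, had 4.79, 5.49 and 5.77 FPKM with GSK3685032 and 13.8, 14.5 and 13.5 FPKM with DMSO. Every inhibitor library was well below every DMSO library. The level was 2.62-fold lower with GSK3685032 (log2 -1.39 ± 0.066, edgeR adjusted p = 1.40e-07). At least 2-fold lower calls numbered 2 in the family, against 8.1% of all tested genes and 9.49% of those averaging at least 1 FPKM. By mean FPKM, SLC25A40 ranked 23 among the carriers with GSK3685032 and 9 with DMSO. SLC25A40 shares 145 bases with DBF4, a cell-cycle kinase subunit gene on the opposite strand, which averaged 10.1 FPKM with GSK3685032 and 17.8 FPKM with DMSO.

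SLC25A39, the other glutathione carrier, had 23.6, 25.8 and 24.0 FPKM with GSK3685032 and 23.1, 23.1 and 22.8 FPKM with DMSO. The groups were apart but the difference missed the threshold (log2 0.08 ± 0.046, edgeR adjusted p = 0.132, interval 0.00 to 0.17). It passed as higher with upper-quartile factors (log2 0.26, edgeR adjusted p = 7.34e-04) and on genes at 1 FPKM or more (log2 0.18, adjusted p = 0.00615). SLC25A32, which carries folate into the matrix, had 20.3, 18.3 and 22.4 FPKM with GSK3685032 and 30.4, 30.5 and 30.6 FPKM with DMSO (log2 -0.59 ± 0.066, edgeR adjusted p = 3.42e-05). SLC25A17, a peroxisomal member of the family, had 5.32, 5.12 and 5.59 FPKM with GSK3685032 and 8.47, 8.41 and 8.28 FPKM with DMSO (log2 -0.66 ± 0.063, edgeR adjusted p = 1.20e-05). Both lay below DMSO in every library.

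The coenzyme A carrier SLC25A42 (log2 0.32, edgeR adjusted p = 0.0146) and the pyrimidine nucleotide carrier SLC25A36 (log2 0.12, adjusted p = 0.0257) were higher, and the S-adenosylmethionine carrier SLC25A26 was lower (log2 -0.28, adjusted p = 0.0146). SLC25A36 lost its call without inhibitor replicate 3, DMSO replicate 1 or DMSO replicate 3 (edgeR adjusted p 0.0904 to 0.108), and SLC25A26 without inhibitor replicate 2 (0.0546). SLC25A26 was called in 10 of 17 alternatives, and not with upper-quartile factors (adjusted p = 0.283), with edgeR on genes at 1 FPKM or more (0.0659) or with limma at any of 3 pseudocounts (0.0693 to 0.0827). SLC25A26 shares 9320 bases with LRIG1 on the opposite strand, which averaged 5.33 FPKM with GSK3685032 and 2.41 FPKM with DMSO. SLC25A16, SLC25A33 and SLC25A51, which carries NAD+, did not pass, and SLC25A52 was not tested.

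Of the 2 mitoferrins, which import iron for haem and iron-sulfur clusters, 1 was lower and 1 did not pass. SLC25A28, the form found in most tissues, had 5.65, 4.95 and 5.46 FPKM with GSK3685032 and 8.48, 9.11 and 8.21 FPKM with DMSO (log2 -0.69 ± 0.082, edgeR adjusted p = 4.97e-05). SLC25A37, the erythroid form, averaged 14.3 ± 0.493 FPKM with GSK3685032 and 14.0 ± 0.294 FPKM with DMSO (SD, n = 3 each) and did not pass (edgeR adjusted p = 0.632, log2 interval -0.06 to 0.10). It passed as higher with upper-quartile factors (log2 0.20, edgeR adjusted p = 0.00204) and on genes at 1 FPKM or more (log2 0.12, adjusted p = 0.0281).

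Among the uncoupling-protein-like members, SLC25A14 had 2.23, 2.15 and 2.49 FPKM with GSK3685032 and 1.52, 1.80 and 1.87 FPKM with DMSO. The groups were apart, but the call (log2 0.39 ± 0.151, edgeR adjusted p = 0.0456) was lost without inhibitor replicate 1 or 3 or any DMSO replicate (0.0574 to 0.142). SLC25A30 did not pass (edgeR adjusted p = 0.092), but passed as higher in 3 of 17 alternatives, among them upper-quartile factors (log2 0.38, edgeR adjusted p = 0.00781). Of the members whose substrate is not settled, SLC25A46, an outer-membrane protein tied to mitochondrial shape, had 9.96, 11.7 and 11.9 FPKM with GSK3685032 and 9.46, 9.03 and 8.71 FPKM with DMSO (log2 0.29 ± 0.063, edgeR adjusted p = 0.00221). Every inhibitor library was above every DMSO library. SLC25A35, SLC25A43 and SLC25A53 did not pass, and SLC25A47 and SLC25A48 were not tested.

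Members without any DMSO count were singled out after their values were seen. SLC25A27, an uncoupling-like carrier best known from brain, had 0.133, 0.291 and 0.400 FPKM with GSK3685032 (28, 61 and 79 counts) and 0 counts in each DMSO library. SLC25A31, an ADP/ATP carrier of male germ cells whose upstream stretch with 4 CACGTG is shown above, had 0.159, 0.300 and 0.316 FPKM with GSK3685032 (18, 34 and 34 counts) and 0 counts in each DMSO library. Set against a floor of 12 counts (3 read pairs) over the DMSO group, the levels were at least 16.3-fold and 8.37-fold higher. Both genes passed the filter on low counts only through the inhibitor libraries and were picked for this pattern, so the values are a description and their edgeR calls, counted above among the 11 higher, lend no support. All 3 inhibitor libraries held counts of both, though the levels stayed under 0.5 FPKM. SLC25A34, also singled out after its values were seen, had 0.205, 0.312 and 0.272 FPKM with GSK3685032 and 0.0558, 0.0275 and 0.0499 FPKM with DMSO (log2 2.50 ± 0.406, edgeR adjusted p = 4.02e-04), and the groups did not overlap. Its DMSO counts were 12, 9 and 12, and it too passed the filter on low counts only through the inhibitor libraries. Its values are likewise a description, and its edgeR call and the lack of overlap lend no support. Also without DMSO counts, but too low to be tested, were SLC25A21, SLC25A48 and SLC25A52. No member was at 0 in all inhibitor libraries. Of all tested genes, 8.7% had 0 counts in every DMSO library.

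**Figure D4:**
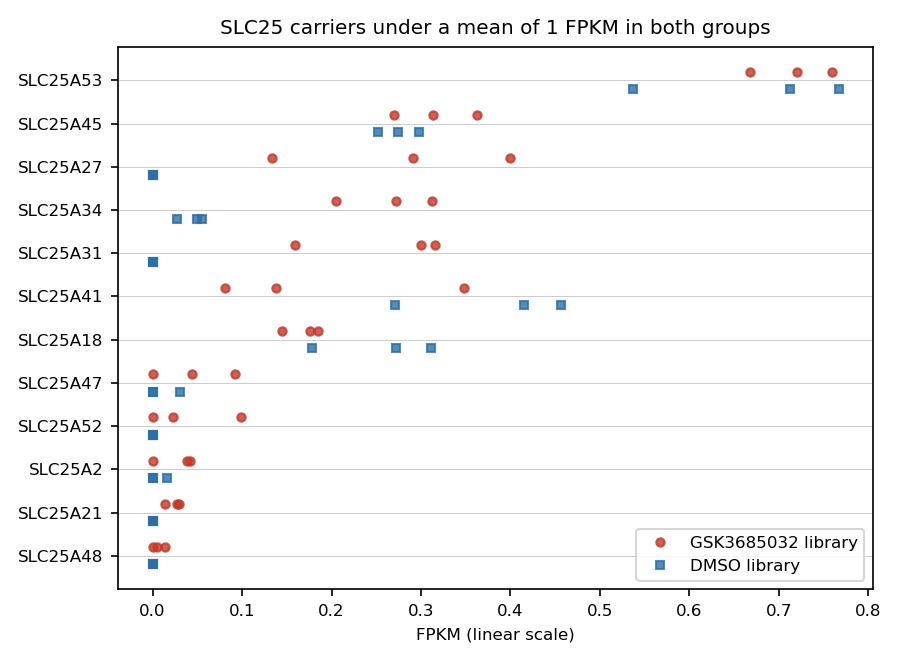
FPKM (linear x axis) in each library of the 12 SLC25 carriers averaging under 1 FPKM in both groups, with GSK3685032 libraries (circles) drawn above DMSO libraries (squares). SLC25A27 and SLC25A31 are at 0 in all 3 DMSO libraries and reach 0.400 and 0.316 FPKM with GSK3685032.

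Paralogous carriers were also compared as shares of their summed FPKM, in 7 sets, and their sequence identity was not measured. An exact permutation test over 3 against 3 libraries (two-sided) cannot go below p = 0.1, so no set can pass 0.05. Among the ADP/ATP carriers, SLC25A6 made up 69.0 ± 0.766% with GSK3685032 and 49.9 ± 1.64% with DMSO, and SLC25A5 28.7 ± 0.818% and 46.1 ± 1.77% (SD, n = 3 each). The summed level of the 3 was 465.7, 448.7 and 441.2 FPKM with GSK3685032 and 261.3, 256.0 and 270.4 FPKM with DMSO. SLC25A39 made up 82.1 ± 1.30% of the glutathione carriers with GSK3685032 and 62.2 ± 0.776% with DMSO. SLC25A12 made up 39.3 ± 2.64% of the aspartate/glutamate carriers with GSK3685032 and 58.5 ± 3.79% with DMSO. SLC25A28 made up 27.3 ± 2.02% of the mitoferrins with GSK3685032 and 38.1 ± 1.76% with DMSO. In each of these sets the groups did not overlap (exact p = 0.1, Benjamini-Hochberg 0.14 over 7 sets). Of the calcium-regulated carriers, SLC25A24 and SLC25A25 were apart in the same way, at 36.4 and 17.4% with GSK3685032 and 29.4 and 23.2% with DMSO, while SLC25A23, the largest share, overlapped at 46.2% with GSK3685032 and 47.5% with DMSO (exact p = 0.4). The glutamate carriers SLC25A22 and SLC25A18 (exact p = 0.5) and the pyrimidine nucleotide carriers SLC25A33 and SLC25A36 (exact p = 0.3) overlapped between groups. Where paralogs or processed pseudogenes are alike in sequence, their reads may be split by the counting. The pseudogene rows SLC25A5P1 and SLC25A24P1 averaged 0.410 and 0.591 FPKM with GSK3685032 and 0.229 and 0 FPKM with DMSO.

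**Figure D5:**
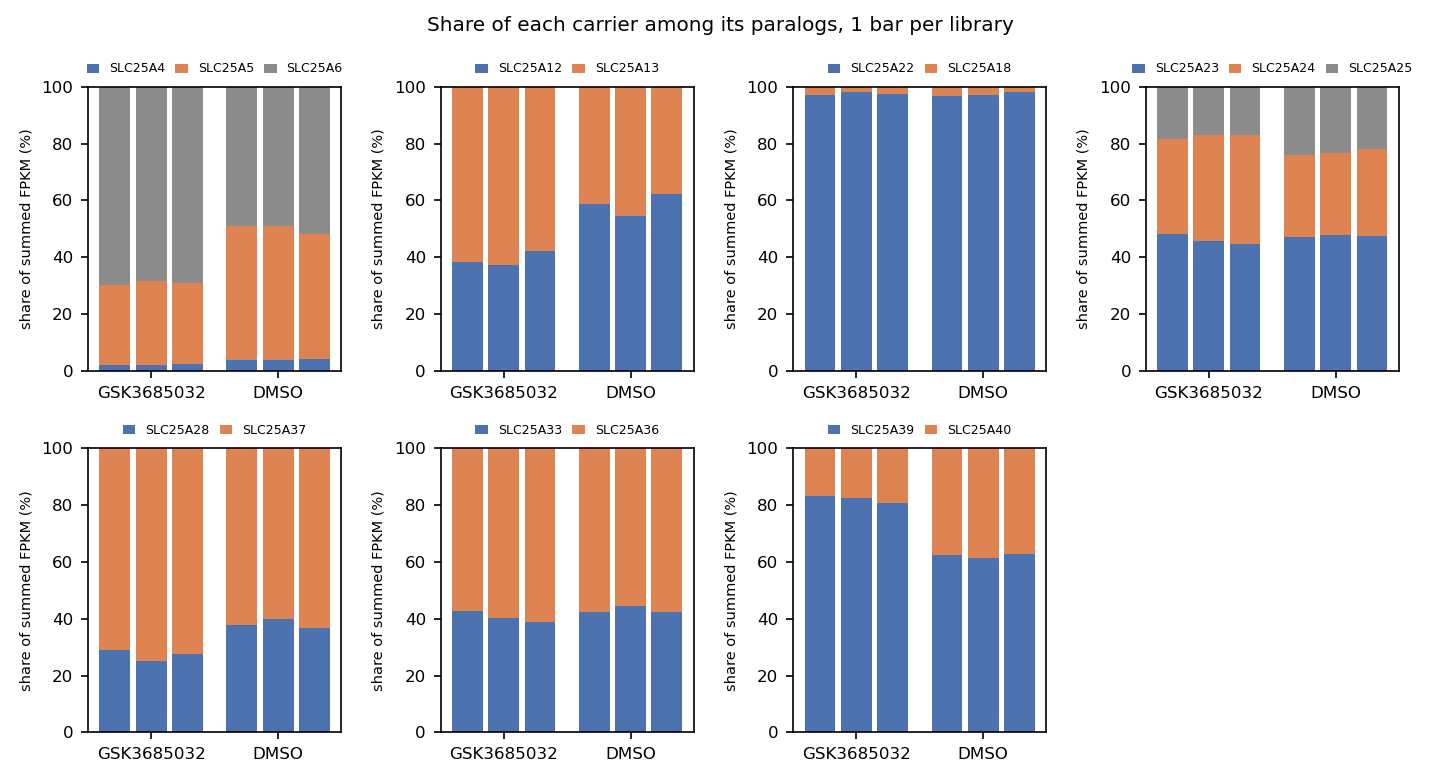
Share of each carrier in the summed FPKM of its set of paralogs, 1 bar per library, with GSK3685032 left of DMSO, for 7 sets. SLC25A6 takes 68.2 to 69.8% of the ADP/ATP carriers with GSK3685032, against 48.9 to 51.8% with DMSO.

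By position, SLC25A41 and SLC25A23 lie 2.3 kb apart on chromosome 19, SLC25A43 and SLC25A5 13.9 kb apart on X, and SLC25A29 and SLC25A47 16.8 kb apart on chromosome 14. In no pair were both members called. Another listed gene overlaps 30 members, 24 of them on the opposite strand, and SLC25A2 lies inside TAF7 on the same strand, so its few counts (0.0266 FPKM with GSK3685032 and 0.0054 FPKM with DMSO on average) cannot be told from those of TAF7. Spread between libraries was small: the coefficient of variation over the 36 carriers at 1 FPKM or more had a median of 6.06% with GSK3685032 (1.41 for SLC25A11 to 20.2 for SLC25A51) and 5.18% with DMSO (0.458 for SLC25A32 to 18.6 for SLC25A13).

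Counts in the lists of related genes below stand beside 38.1% higher and 27.3% lower of all tested genes, 34.1% and 39.7% of those averaging at least 1 FPKM, and medians of 0.14 and -0.06 (log2) over the same genes. They are descriptions, and nothing is read from them as particular to a list. Family members with other names had 2 of 5 higher and 1 lower: UCP2, a mitochondrial carrier of the uncoupling protein group, averaged 30.2 FPKM with GSK3685032 and 20.6 FPKM with DMSO (log2 0.55, edgeR adjusted p = 5.23e-06), and MTCH1 averaged 9.13 and 10.3 FPKM in the same order (log2 -0.18, adjusted p = 0.00903). The call of UCP1, the higher member beside UCP2, was at 0.229 FPKM with GSK3685032 and 0.017 FPKM with DMSO and was lost without inhibitor replicate 1 or 3. UCP1 had 0, 0.051 and 0 FPKM in the DMSO libraries. It passed the filter on low counts only through the inhibitor libraries, so its call lends no support.

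Of 16 genes of the import route of carrier proteins, 3 were higher and 9 lower (median log2 -0.25). Beside these stand 38.1% and 27.3% of all tested genes, and 34.1% and 39.7% of those averaging at least 1 FPKM. With upper-quartile scaling 4 of the list were higher and 6 lower, beside 44.8% and 20.9% of all tested genes. TIMM10, a chaperone of the intermembrane space that hands carriers to the inner membrane, averaged 21.6 FPKM with GSK3685032 and 42.7 FPKM with DMSO (log2 -0.99, edgeR adjusted p = 1.04e-06). TIMM22, the inner-membrane insertase of carriers, averaged 5.19 FPKM with GSK3685032 and 9.88 FPKM with DMSO (log2 -0.93, edgeR adjusted p = 8.05e-06). TIMM10B averaged 13.9 FPKM with GSK3685032 and 6.32 FPKM with DMSO, and AGK 1.94 and 0.881 FPKM in that order, both with a log2 fold change of 1.13 (edgeR adjusted p = 5.17e-07 and 5.78e-06).

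Other inner and outer membrane transport genes had 4 of 20 tested higher and 12 lower (median log2 -0.34). Beside these stand 38.1% and 27.3% of all tested genes, and 34.1% and 39.7% of those averaging at least 1 FPKM. With upper-quartile scaling 6 of the list were higher and 11 lower, beside 44.8% and 20.9% of all tested genes. MPC2, a subunit of the pyruvate carrier, averaged 10.6 FPKM with GSK3685032 and 25.3 FPKM with DMSO (log2 -1.25, edgeR adjusted p = 6.06e-07). The outer-membrane channel VDAC1 averaged 89.8 FPKM with GSK3685032 and 146 FPKM with DMSO (log2 -0.71, edgeR adjusted p = 2.47e-07), VDAC3 was lower by the same log2 value, and MCUB, a regulator of calcium uptake, was lower by -0.76.

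Of 17 tested enzymes on either side of the carboxylate and aspartate carriers, 7 were higher and 6 lower (median log2 0.04). Beside these stand 38.1% and 27.3% of all tested genes, and 34.1% and 39.7% of those averaging at least 1 FPKM. With upper-quartile scaling 10 of the list were higher and 4 lower, beside 44.8% and 20.9% of all tested genes. ACLY, which splits the exported citrate in the cytosol, averaged 58.2 FPKM with GSK3685032 and 29.7 FPKM with DMSO (log2 0.96, edgeR adjusted p = 5.44e-08), and SLC25A1 was also higher. GOT2, the mitochondrial aspartate aminotransferase of the shuttle, averaged 31.8 FPKM with GSK3685032 and 69.9 FPKM with DMSO (log2 -1.14, edgeR adjusted p = 7.92e-08). SLC25A11 and SLC25A12 were also lower, while GOT1 (log2 -0.03, edgeR adjusted p = 0.708) and SLC25A13 did not pass. A link between these enzymes and the carriers was not tested. ASNS, the asparagine synthetase, averaged 114 FPKM with GSK3685032 and 57.2 FPKM with DMSO (log2 0.99, edgeR adjusted p = 6.95e-06). ME1, the cytosolic malic enzyme, averaged 1.38 and 0.024 FPKM in that order (log2 5.63, edgeR adjusted p = 2.14e-04). Its DMSO libraries had 0, 0.072 and 0 FPKM, so it passed the filter on low counts only through the inhibitor libraries. PC, also counted among the 7 higher, averaged 0.553 FPKM with GSK3685032 and had 0.0168, 0 and 0.0245 FPKM in the DMSO libraries. It too passed that filter only through the inhibitor libraries. The values of ME1 and PC are a description, and their edgeR calls, counted among the 7 higher, lend no support.

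The folate one-carbon enzymes beside SLC25A32 had 5 of 16 tested higher and 6 lower (median log2 -0.05). Beside these stand 38.1% and 27.3% of all tested genes, and 34.1% and 39.7% of those averaging at least 1 FPKM. With upper-quartile scaling 7 of the list were higher and 4 lower, beside 44.8% and 20.9% of all tested genes. TYMS, which makes thymidylate, averaged 23.8 FPKM with GSK3685032 and 123 FPKM with DMSO (log2 -2.37, edgeR adjusted p = 3.99e-08). MTHFD1, which interconverts folate one-carbon units, was lower by a log2 value of -1.46, while ALDH1L2, a mitochondrial folate enzyme, was higher by 5.95 (5.14 FPKM with GSK3685032 and 0.0796 FPKM with DMSO, edgeR adjusted p = 3.88e-09).

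Genes of haem and iron-sulfur cluster assembly, beside the mitoferrins and SLC25A38, had 10 of 25 tested higher and 7 lower (median log2 -0.05). Beside these stand 38.1% and 27.3% of all tested genes, and 34.1% and 39.7% of those averaging at least 1 FPKM. With upper-quartile scaling 11 of the list were higher and 4 lower, beside 44.8% and 20.9% of all tested genes. FTL, the ferritin light chain, averaged 893 FPKM with GSK3685032 and 201 FPKM with DMSO (log2 2.15, edgeR adjusted p = 1.71e-07), and its many pseudogenes make its count uncertain. The haem synthesis genes CPOX and PPOX were higher by log2 values of 1.77 and 1.22, and FDX2, a ferredoxin of iron-sulfur assembly, was lower by -1.38 (edgeR adjusted p = 1.93e-04). Without DMSO replicate 3 the number lower in this list was 4.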

How the data were processed

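Poly(A) RNA of 6 libraries was sequenced in pairs. The authors deposited estimated counts and FPKM values per gene. The tools listed, per the submitters' processing notes and in no stated role, are StringTie 2.1.6, HISAT2 2.2.1, edgeR, cutadapt 1.9 and DESeq2. The same notes name mm10, but the gene IDs are human: 34105 of 35974 matched GENCODE 29 and 99.87% of those overlapped their GRCh38 position. Use of strand in counting is not stated.

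Counts were tested with edgeR 4.0.16 (quasi-likelihood, TMM factors, filterByExpr, R 4.3.3), two-sided, with Benjamini-Hochberg adjustment over 20783 genes and a threshold of 0.05, after a check on simulated data. Standard errors were derived from the fold change and its F statistic. Alternatives used DESeq2 1.42.0, limma 3.58.1 on log2(FPKM + 0.5), and other scalings and filters. Libraries within a group were not identical and differed by 3.50 to 7.45 times the sampling variance. Described by library were members averaging at least 1 FPKM in a group that met a rule. They were among the 3 called with the largest change of their role group, or among the 5 most abundant. A switch between under 0.1 and at least 0.5 FPKM would also have counted, but none switched. At most 4 genes per related list were named for their change, with GOT1, UCP1 and PC named outside this rule. Members and lists were chosen with earlier results of these data known. Some items covered by these counts and by the naming rule are not reported here.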

Additional observations from a re-analysis of the deposited data

How the results depend on the processing

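Over 17 alternatives, 17 of the 26 called carriers (6 higher, 11 lower) were called in every alternative that tested them, and SLC25A38 changed direction, with a log2 value of 0.03 under upper-quartile scaling. The 6 higher include SLC25A27 and SLC25A34, which passed the filter on low counts only through the inhibitor libraries. Their repeated calls therefore lend no support. The causes of the changes below were not tested. The median log2 fold change of the carriers, -0.03, was -0.01 with relative log expression factors and with DESeq2, 0.15 with upper-quartile factors, 0.02 with no filter, 0.03 at 1 FPKM or more, -0.06, -0.07 and -0.05 with limma at pseudocounts of 0.5, 0.1 and 1, and -0.08 to 0.00 leaving out 1 library. The median of all genes tested, 0.14, moved as well. It was 0.16 with relative log expression factors and with DESeq2, 0.31 with upper-quartile factors and 0.35 with no filter. At 1 FPKM or more it was 0.03, with limma -0.06 to -0.05, and leaving out 1 library 0.14 to 0.19. With inhibitor replicate 1 alone, the spread comes from the DMSO libraries only and the lone library is assumed to vary like them. Calls of this fit are therefore not listed, though it is 1 of the 17 alternatives. Its log2 values are given for the called carriers that were not called in every alternative. They were -0.4 for SLC25A10, 0.38 for SLC25A14, -0.35 for SLC25A20, -0.13 for SLC25A26 and 7.35 for SLC25A31. For SLC25A36, SLC25A38, SLC25A42 and SLC25A46 they were 0.09, -0.19, 0.24 and 0.16. Each kept the direction of the main fit. In the haem list the number lower was 4 with upper-quartile factors and at 1 FPKM or more, beside 20.9% and 35.6% of all genes. Leaving out 1 library it was 4 to 7, beside 23.8 to 25.1%. Of the other-named family, 1 gene was higher at 1 FPKM or more, with limma and with counts divided by 4, and 1 to 2 leaving out 1 library. Lower were 0 with upper-quartile factors and at 1 FPKM or more. From counts in place of FPKM, the share of SLC25A37 differed by 7.01 percentage points and that of SLC25A40 by -22.71. Same-numbered libraries did not deviate together (r = 0.045, 0.046 and -0.069 across genes), so the numbers were not taken as pairs. A replicate block left 9 carriers higher and 14 lower, beside 35.8% and 25.8% of all genes tested. It left 1 other-named gene higher. The filter on low counts left 5 carriers out of the test.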
